A study of Mus musculus with 10 samples.

Results

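The Schlafen genes are a family of interferon-responsive genes named for the growth arrest that its first members caused in mouse thymocytes. Members were matched by symbol in the deposited comparison tables, which gave Slfn1, Slfn2, Slfn3, Slfn4, Slfn5, Slfn8 and Slfn9, and the estimated counts and TPM (abundance per transcript length, scaled to the library) of their transcripts were summed in each library. These are 7 of the 29893 genes that the libraries measure, and all 7 passed the filter on low counts. A further 3 genes carry a Schlafen name, the pseudogene Slfn10-ps, Slfn14 and Slfnl1, and are described beside them.

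The RNA came from CCR2+ monocytes and from neutrophils, both sorted by flow cytometry from lungs of NOD/scid mice, a strain that lacks mature T and B lymphocytes. Every mouse carried a breast tumour to end point, either HCl-002 (TN2, low metastatic) or HCl-001 (TN1, highly metastatic), and no library came from a tumour-free mouse. The groups were monocytes of TN2 (tag_367, tag_706 and tag_1341), monocytes of TN1 (tag_191 and tag_482), neutrophils of TN2 (tag_367, tag_706 and tag_1341) and neutrophils of TN1 (tag_191 and tag_482), so there were 10 libraries. The labels give neither the age of the mice nor whether a tag is 1 animal or a pool, so p-values measure the spread between these samples, which may be technical. Each tumour is a single line, and what belongs to that line cannot be told apart from its metastatic behaviour.

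Schlafen proteins share an N-terminal core domain that in several members binds or cuts RNA. The short mouse forms Slfn1 and Slfn2 consist of little more than this core, Slfn3 and Slfn4 carry an additional linker domain, and the long forms Slfn5, Slfn8 and Slfn9 end in a helicase-like domain. Type I interferon raises many of them, and Slfn2 is required in mice for the quiescence of T cells and monocytes. In human cells the family is known for restricting virus replication through tRNA and through chromatin.

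Depth was between 7239218 and 11311370 estimated counts, with 8851 to 15211 genes at 5 counts or more. In both cell types TN1 tag_482 detected the fewest genes, and mitochondrial transcripts took most TPM there, 19.9% in monocytes and 3.002% in neutrophils, against 4.82% to 5.82% and 0.283% to 0.813% in the other libraries of these cell types. All 15 neutrophil markers were lower in monocytes (edgeR's quasi-likelihood test). Of 15 monocyte markers 12 were higher in monocytes and 1, the endotoxin co-receptor gene Cd14, was lower. Ly6g, the classical neutrophil surface marker, was at 0 to 53.3 TPM in monocytes and 440 to 1000 TPM in neutrophils. Ccr2, the receptor used for the sort, was at 128 to 340 TPM in monocytes and 0.905 to 18.4 TPM in neutrophils. Monocyte library TN2 tag_706 stood apart, with the highest lung epithelial, endothelial and stromal markers of its cell type, 2350 CPM. CPM are counts scaled to the library total and by TMM factors, a scaling to the bulk of the genes. By CPM the summed monocyte markers of TN2 tag_706 were also the lowest among the monocyte libraries, at 19734 CPM. By TPM the lowest sum of monocyte markers was that of TN1 tag_482, 25593 TPM, against 27077 TPM in TN2 tag_706. Macrophage and dendritic cell markers were higher in monocytes for 9 of the 13 tested and lower for 1, the eosinophil and alveolar macrophage gene Siglecf. Of the 11 lymphocyte and natural killer, 15 lung and 7 erythroid and platelet markers tested, 0 passed edgeR's threshold, with 0, 2 and 3 of them at an unadjusted p under 0.05. Their levels were uneven all the same. Lymphocyte and natural killer markers summed to 7.14 to 721 TPM in monocytes, highest in TN2 tag_706, and 0.563 to 54.6 TPM in neutrophils. Erythroid and platelet markers summed to 12.1 to 485 TPM in monocytes and 4.16 to 22.3 TPM in neutrophils.

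The 7 genes lie side by side on chromosome 11, from 82951349 at the start of Slfn5 to 83215154 at the end of Slfn3 in the GENCODE annotation of GRCm38, a span of 264 kb. In order they are Slfn5 on the plus strand, Slfn9 and Slfn8 on the minus strand with Slfn10-ps next to them, and then Slfn2, Slfn1, Slfn4 and Slfn3 on the plus strand. Slfn14 follows at 83275110 to 83286726, past the pseudogene Gm11427, and Slfnl1 lies on chromosome 4. Neighbouring paralogs are alike in sequence, which bears on how well kallisto can split their reads. Of the 31-base words in its transcripts, Slfn3 shared 41.7% with another gene, most of them with Slfn4 (28.9%) or Gm11427 (20.6%). Slfn8 shared 26.7%, with Slfn9 and Slfn10-ps, Slfn9 shared 21.9%, and Slfn4 shared 21.0%. Slfn2 shared 10.2%, Slfn5 5.81% and Slfn1 1.96%, so levels of Slfn1 and Slfn5 rest almost wholly on words of their own, while the low levels of Slfn3 and Slfn9 are the least certain. The antisense gene Slfn5os overlaps Slfn5, and Smart-seq2 reads carry no strand, so reads of the 2 genes cannot be told apart where they overlap. Slfn5os itself was listed at 0 in 9 libraries and at 7.43 counts in monocyte library TN2 tag_706. Slfn2, at 83065112 to 83070678, is likewise overlapped by the antisense gene Gm20234, at 83065752 to 83071246 on the minus strand. Gm20234 has no level in these libraries, so reads of it that match Slfn2 would be counted as Slfn2. Their part in the Slfn2 levels was not tested.

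Among the members, an interferon response element core and a shared word near the RefSeq start lay at different ends of the cluster. They are shown because the members that differ between the cell types come from both ends. Neither kept to the members that differ. Slfn8 and Slfn9 held the core and Slfn2 and Slfn3 the word, and none of them passed edgeR's threshold between the cell types. RefSeq promoter windows on GRCm38.p6 were available for 7 of 7 members, each from 250 bases before to 50 bases after the RefSeq start, 300 bases in all. For 5 members this start is also the gene start in GENCODE. For Slfn1 it lies 29 bases before the GENCODE start, and for Slfn5 it lies 753 bases after it, so that the Slfn5 window is inside the gene as GENCODE draws it. Searched on both strands for the core of the interferon-stimulated response element, GAAANNGAA, the windows of 3 of 7 members held it, those of Slfn5, Slfn8 and Slfn9, against 8.56% of 32851 windows of all genes. The window of Slfn14, which lies past Slfn3 and is not a member, also held the core, as GAAAGTGAA at position -197. The gamma-activated site TTCNNNGAA was in 0 of 7 members, against 8.30% of all windows. The longest word that 4 of the 7 members held before the start, on the strand of the gene, was ACTTCCTGG, in Slfn1, Slfn2, Slfn4 and Slfn3, which are the 4 neighbours at the other end of the cluster. Its 7-letter part TTCCTGG was also in Slfn5, so only the full word kept to that end. The full word was found by comparing these windows, not searched for in advance, and it occurred on either strand in 0.843% of all windows. Capitals mark the full word or the response element core, each with 10 bases on either side, written 5′ to 3′ on the strand of the gene.
Slfn2, chr11:83065047-83065075, plus strand: cagggctttcACTTCCTGGagggtgacag
Slfn1, chr11:83116736-83116764, plus strand: gatgtctcacACTTCCTGGagtgacatca
Slfn4, chr11:83175103-83175131, plus strand: ttccggttatACTTCCTGGagtgacgaaa
Slfn3, chr11:83191278-83191306, plus strand: ggatgacagaACTTCCTGGgggagggact
Slfn5, chr11:82951937-82951965, plus strand: ccttcaaagtGAAAAAGAAaaaaaaaaaa
Slfn5, chr11:82951960-82951988, plus strand: aaaaaagctcTTCTCTTTCttaaagttaa
Slfn8, chr11:83020839-83020867, minus strand: tttgagcagtTTCGTTTTCcccaaaagca
Slfn9, chr11:82991856-82991884, minus strand: tccgagcagtTTCGTTTTCccaaaaacaa

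Counted from the RefSeq start, the shared word began at position -55 in Slfn2, -74 in Slfn1, -73 in Slfn4 and -42 in Slfn3. The response element cores began at -155 and -132 in Slfn5, at -47 in Slfn8 and at -44 in Slfn9, the last 2 of these with the same 9 letters, TTCGTTTTC. Slfn4 was the only member whose window held TATAAA, at position -19. That is 1 of 7 members, near the 13.6% of all windows. The 250 bases before the Slfn4 start had 29.6% G and C, against 48.0% to 52.0% in the other 6 members. These 250 bases are given for Slfn4 and, beside it, for Slfn5, the called gene with the response element cores, with capitals for the shared word and TATAAA in Slfn4 and for the 2 cores in Slfn5.
Slfn4, chr11:83174936-83175185, plus strand: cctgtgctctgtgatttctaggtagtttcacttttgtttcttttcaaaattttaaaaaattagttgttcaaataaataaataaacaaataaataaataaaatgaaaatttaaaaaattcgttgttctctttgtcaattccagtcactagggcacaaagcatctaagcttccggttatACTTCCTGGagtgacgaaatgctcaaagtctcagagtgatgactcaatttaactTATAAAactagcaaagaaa
Slfn5, chr11:82951852-82952101, plus strand: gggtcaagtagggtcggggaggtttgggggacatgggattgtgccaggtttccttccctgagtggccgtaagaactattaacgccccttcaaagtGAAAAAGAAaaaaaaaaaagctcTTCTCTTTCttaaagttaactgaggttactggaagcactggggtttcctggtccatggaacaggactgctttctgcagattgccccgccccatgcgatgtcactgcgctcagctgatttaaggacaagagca
A match of letters is a description of the window, not evidence that a factor binds there.

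Taken as a sum, Schlafen transcripts were less abundant in monocytes than in neutrophils, and the make-up of the sum differed. The 7 genes added up to 742 to 1682 TPM in monocytes (median 859) and 2094 to 4887 TPM in neutrophils (median 2290.0), and no monocyte library reached a neutrophil library. Slfn2 made up 55.0% to 79.1% of the Schlafen TPM in monocytes and 20.1% to 36.5% in neutrophils. Slfn4 made up 7.76% to 29.0% in monocytes and 46.3% to 67.4% in neutrophils. In each of the 5 monocyte libraries the order began Slfn2, Slfn4, Slfn1 and ended Slfn9, Slfn3, with Slfn5 above Slfn8 in 2 libraries, TN2 tag_367 and tag_706, and below it in the other 3. In each of the 5 neutrophil libraries the order was Slfn4, Slfn2, Slfn1, Slfn5, Slfn8, Slfn9, Slfn3. Among all 13384 genes tested, mean TPM placed Slfn2 at rank 198 in monocytes and 183 in neutrophils. Slfn4 was at rank 705 in monocytes and 71 in neutrophils. These are levels per transcript length, so they may be set beside each other across genes, and in sorted bulk samples fewer expressing cells cannot be told apart from less RNA per cell.

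**Figure D1:**
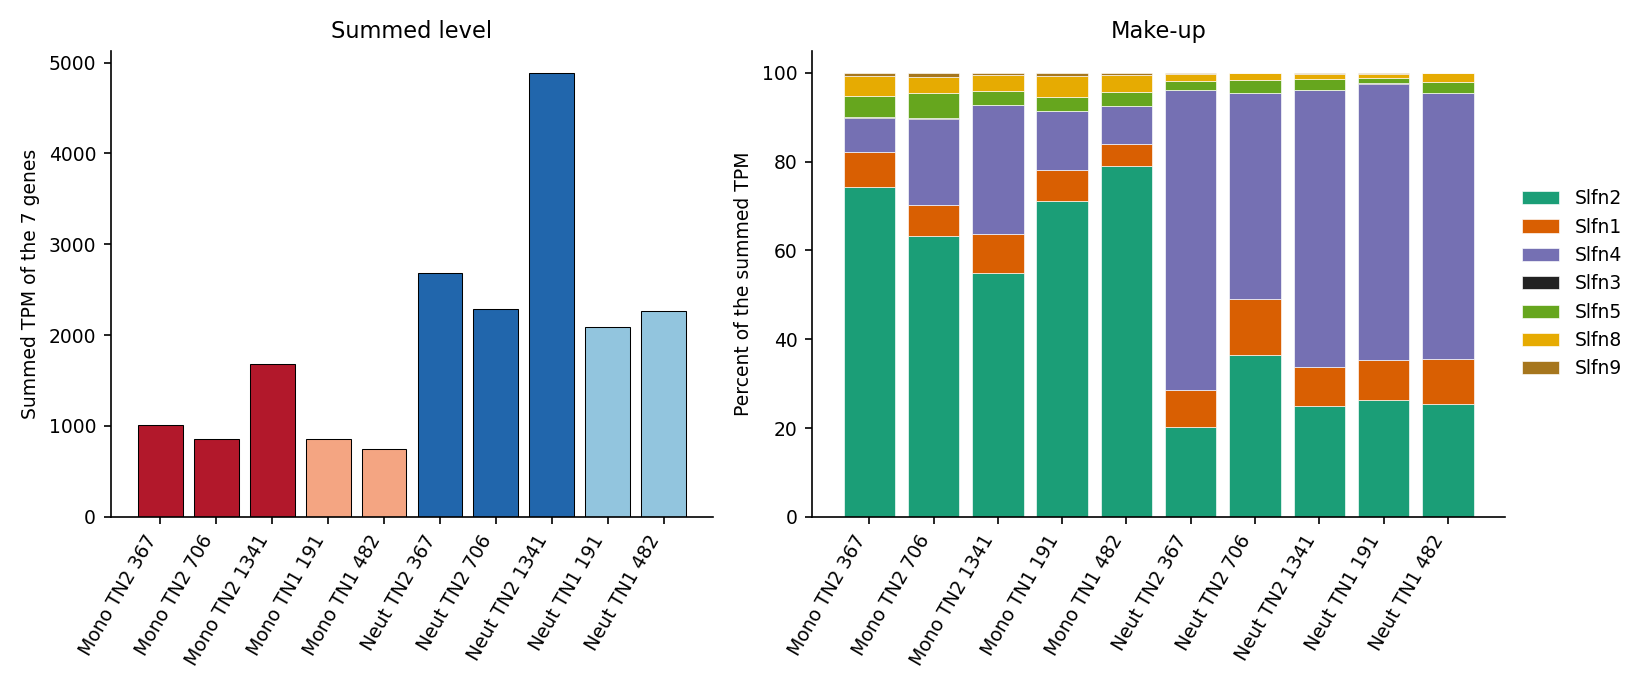
Summed TPM of the 7 Schlafen genes (left) and the percent of that sum held by each gene (right) in the 10 libraries, with 1 bar per library, monocytes in red tones and neutrophils in blue tones on the left, and darker tones for TN2. The monocyte sums lie between 742 and 1682 TPM and are mostly Slfn2, and the neutrophil sums lie between 2094 and 4887 TPM, with Slfn4 as the largest share.

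Between the cell types, 3 of the 7 members were lower in monocytes and none was higher (edgeR's quasi-likelihood test, Benjamini-Hochberg adjusted p under 0.05). In this comparison 27.9% of all genes tested were called, 15.5% higher and 12.4% lower, and at an unadjusted p under 0.05 stood 4 of 7 members and 40.9% of genes. The 3 were Slfn4, Slfn1 and Slfn5, which belong to all 3 structural classes of the family. The log2 differences of this test are of CPM after TMM scaling, a scaling to the bulk of the genes that raises neutrophils relative to TPM. The median of all genes was 0.46 higher in monocytes on the same scale, so each member is also given relative to it. The median difference of the 7 members was -0.86, and all 7 differences were below 0, while 58.9% of all genes were above 0. The scaling sets how genes divide: 2070 were called higher and 1663 lower with TMM, against 3910 and 886 without scaling factors, where the median of all genes was 1.30, and 4532 and 1198 by limma-trend on log2(TPM + 1), where it was 0.62.

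Slfn4, a myeloid member that toll-like receptor ligands and interferon raise in mouse macrophages, differed most. It was at 78.3, 166 and 487 TPM in TN2 monocytes (tag_367, tag_706 and tag_1341), at 112 and 62.2 TPM in TN1 monocytes (tag_191 and tag_482), at 1811, 1061 and 3050.2 TPM in TN2 neutrophils and at 1302 and 1362 TPM in TN1 neutrophils, tags in the same order. Every monocyte library was below every neutrophil library, with TN2 tag_1341 the highest of both cell types. The log2 difference was -4.24 ± 0.59 (SE, 5 libraries each, edgeR adjusted p = 0.000696), or -4.71 relative to the median of all genes. On TPM the means were 181 ± 176 in monocytes and 1717 ± 793 in neutrophils (SD, n = 5 each), a 9.48-fold lower level in monocytes. Over the 21 alternatives the difference stayed between -4.85 and -3.40 and was called in each.

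Slfn1, a short form that blocks T cell growth when expressed at high level in mice, followed. It was at 77.4, 60.5 and 148 TPM in TN2 monocytes, 59.6 and 36.6 TPM in TN1 monocytes, 229.7, 289 and 424 TPM in TN2 neutrophils and 188 and 226 TPM in TN1 neutrophils, with tags in the order above. The cell types did not overlap here either. The log2 difference was -2.70 ± 0.36 (SE, 5 libraries each, edgeR adjusted p = 0.000607), or -3.16 relative to all genes, and it ranged from -2.98 to -1.85 over the 21 alternatives, all of them called. By CPM, Slfn1 and Slfn4 were the only members without overlap between the cell types, 2 of 7 lower, against 12.6% of all genes lower, 16.0% higher and 28.5% in either direction.

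Neutrophil markers were also detected in the monocyte libraries. The 15 neutrophil markers summed to 1655, 9722 and 5019 TPM in TN2 monocytes and 1362 and 1444 TPM in TN1 monocytes, tags as above, which is 0.741% to 5.29% of the neutrophil median of 183710 TPM. Slfn4 in the same libraries was at 4.57% to 35.8% of its neutrophil median, and Slfn1 at 15.9% to 64.2%. In the TN2 libraries the 5.75%, 12.2% and 35.8% for Slfn4 stand beside 0.901%, 5.29% and 2.73% for the markers, tag_367, tag_706 and tag_1341. In the TN1 libraries 8.26% and 4.57% stand beside 0.741% and 0.786%. In neutrophils the sum is mostly S100a8 and S100a9, and single markers varied. Of the 15 markers, each against its own neutrophil median, 3, 1 and 1 stood above Slfn4 in the TN2 libraries and 3 and 4 in the TN1 libraries, tags as above. Mmp8, a neutrophil collagenase gene, was among them in all 5 libraries, at 9.10% to 44.5%, and Trem1, Clec4d and Il1r2 made up the others. No marker stood above Slfn1 in any monocyte library. The part of neutrophil RNA in these levels was not tested.

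Slfn5, a long form that in human cells represses interferon-driven and viral transcription, was called with a smaller difference. It was at 47.7, 48.5 and 52.8 TPM in TN2 monocytes, 26.4 and 23.6 TPM in TN1 monocytes, 53.6, 65.6 and 121 TPM in TN2 neutrophils and 24.3 and 53.9 TPM in TN1 neutrophils. The cell types overlapped, since neutrophil library TN1 tag_191 was as low as the TN1 monocytes. The log2 difference was -1.48 ± 0.36 (SE, 5 libraries each, edgeR adjusted p = 0.0132), or -1.95 relative to all genes. The call did not hold on TPM, where log2(TPM + 1) gave -0.56 (limma-trend adjusted p = 0.1599), nor without TMM scaling (-0.63, edgeR adjusted p = 0.150). It was also lost without monocyte library TN1 tag_482 (-1.49, edgeR adjusted p = 0.0556), without neutrophil library TN1 tag_482 (-1.11, edgeR adjusted p = 0.0577) and without both (-1.18, edgeR adjusted p = 0.115).

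Slfn2, the short form that protects tRNA from cleavage by angiogenin in mouse T cells, was abundant in both cell types. It was at 751, 543 and 925 TPM in TN2 monocytes, 606 and 587 TPM in TN1 monocytes, 541, 835 and 1221 TPM in TN2 neutrophils and 553 and 579 TPM in TN1 neutrophils. The ranges overlapped over most of their length. The log2 difference of -0.86 ± 0.32 did not pass the test (SE, 5 libraries each, edgeR adjusted p = 0.0687), while DESeq2 called it (adjusted p = 0.0472), as did edgeR without neutrophil library TN2 tag_367 (-1.02, adjusted p = 0.0209). Without TMM scaling the difference was 0.0033.

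The other 3 members did not pass the test. Slfn8 was at 44.8, 30.1 and 60.7 TPM in TN2 monocytes, 40.8 and 27.8 TPM in TN1 monocytes, 45.9, 37.1 and 62.7 TPM in TN2 neutrophils and 21.8 and 43.4 TPM in TN1 neutrophils, nearly the same range in both cell types. Slfn9, another long form, was at 7.39, 8.66 and 8.30 TPM in TN2 monocytes, 5.20 and 3.87 TPM in TN1 monocytes, 4.20, 1.75 and 6.26 TPM in TN2 neutrophils and 3.69 and 2.72 TPM in TN1 neutrophils. The TN2 monocytes were above every neutrophil library, and the TN1 monocytes were not. Slfn3, described in gut epithelium and regulatory T cells of rodents, stayed between 0.162 and 2.58 TPM in monocytes and between 0.801 and 2.24 TPM in neutrophils, with 2.09 to 37.2 counts per library. The log2 differences were -0.66 ± 0.31 for Slfn8, -0.34 ± 0.46 for Slfn9 and -0.61 ± 0.91 for Slfn3 (SE, 5 libraries each, edgeR adjusted p = 0.138, 0.614 and 0.644). On log2(TPM + 1) the signs turned, with 0.00067 for Slfn8, 0.67 for Slfn9 and 0.0077 for Slfn3, none of them called by limma-trend.

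**Figure D2:**
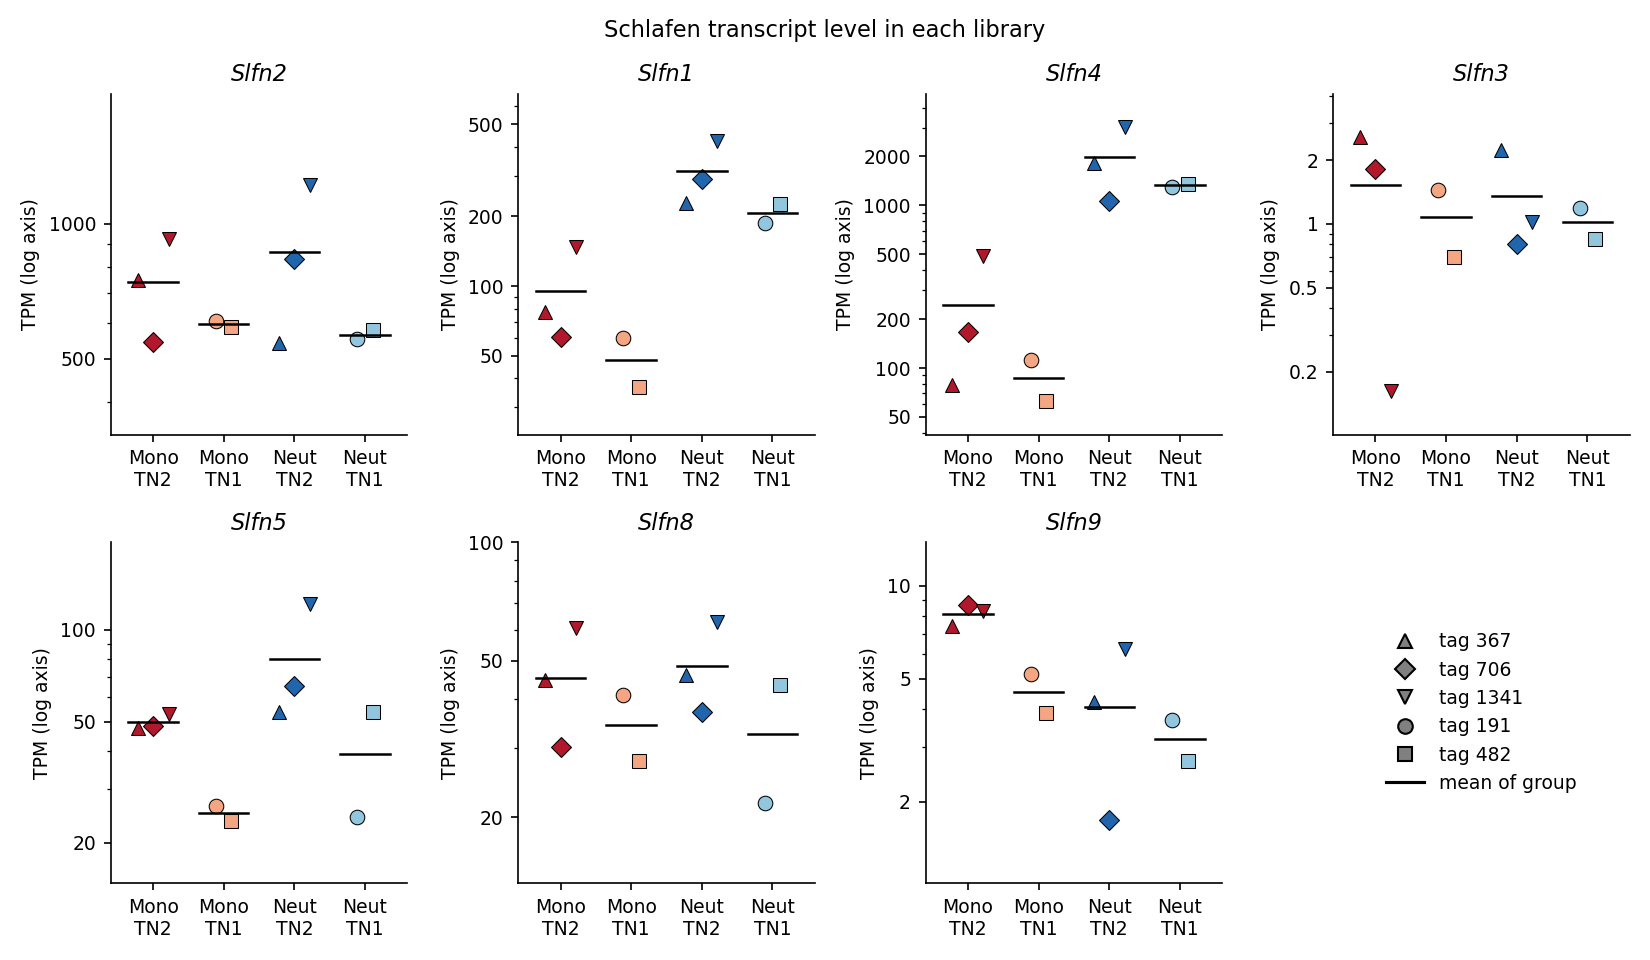
TPM on a log axis of each Schlafen gene in the 4 groups (Mono, monocytes; Neut, neutrophils), 1 point per library with the marker showing its tag, and a line at the mean of the group. Slfn4 and Slfn1 separate the cell types without overlap, whereas Slfn2 and Slfn8 overlap over most of their range.

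**Figure D3:**
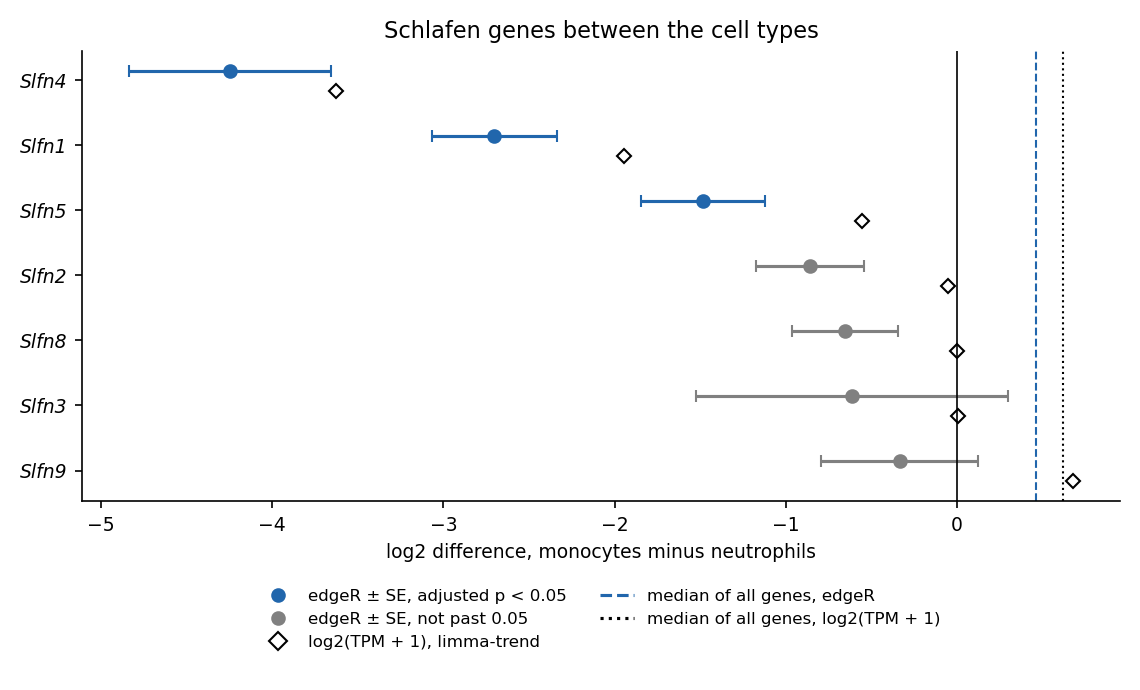
Log2 difference of each Schlafen gene, monocytes minus neutrophils, by edgeR on TMM-scaled counts (circles with SE, blue where adjusted p is under 0.05) and by limma-trend on log2(TPM + 1) (diamonds), with the median of all genes for each as a vertical line. Slfn4 lies at -4.24 and Slfn1 at -2.70, and the diamonds sit to the right of the circles for every gene.

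Sums over paralogs do not depend on how reads were split among the genes summed. They still depend on the split with genes left out, since Slfn4 shared 8.78% of its words with Gm11427 and 2.88% with Slfn2. Gm11427 had up to 171 counts in a monocyte library and up to 9.03 in a neutrophil library. Counts of Slfn3 and Slfn4 together differed by -4.24 ± 0.59 (SE, 5 libraries each, edgeR adjusted p = 0.000689), as Slfn4 alone did. Counts of Slfn8, Slfn9 and Slfn10-ps together differed by -0.49 ± 0.31 and did not pass (edgeR adjusted p = 0.255). These sums were chosen after the values were seen.

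The cell types also differed in which transcripts of 2 members they held. Slfn4-201, the longer of the 2 Slfn4 transcripts, made up 70.5% ± 7.02 of Slfn4 TPM in monocytes and 53.1% ± 3.31 in neutrophils (SD, n = 5 each). The ranges of 60.3% to 79.7% and 48.6% to 55.9% did not overlap, and the exact two-sided permutation p was 0.00794, the smallest that 5 against 5 libraries allow (0.0159 adjusted over the 4 members with several transcripts). Slfn9-201 made up 61.3% ± 20.8 of Slfn9 TPM in monocytes and 98.4% ± 2.78 in neutrophils (SD, n = 5 each), with the same exact permutation p and the same adjusted p. In monocytes the larger part of the rest of Slfn9 was the shorter Slfn9-203, at 16.1% to 72.5%, with the highest share in TN1 tag_482, a library with 71.2 Slfn9 counts. The shares of Slfn5-201 (82.1% ± 7.99 in monocytes, 78.8% ± 8.70 in neutrophils) and Slfn8-201 (65.2% ± 3.79 and 60.03% ± 15.4, in the same order of cell types) gave exact permutation p of 0.540 and 0.667 (SD, n = 5 each). Slfn1, Slfn2 and Slfn3 have 1 transcript each in the files. How many reads tell transcripts of a gene apart is not given in the files, and a difference in coverage along the transcript between the sorts was not tested.

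Of the other genes with a Schlafen name, Slfn10-ps passed the filter. It was at 8.88, 3.85 and 16.2 TPM in TN2 monocytes, 5.56 and 0.0827 TPM in TN1 monocytes, 2.20, 1.31 and 3.71 TPM in TN2 neutrophils and 0.529 and 0.0506 TPM in TN1 neutrophils. Both tag_482 libraries were near 0, at 2.01 and 1.01 counts. The log2 difference between the cell types was 1.83 ± 1.03 (SE, 5 libraries each, edgeR adjusted p = 0.210). Slfn14, an endoribonuclease gene of reticulocytes and platelets, had at most 7 counts in a library, and Slfnl1 had 7 counts in monocyte library TN2 tag_706 and 0 elsewhere.

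Interferon genes were compared in the same way, since type I interferon is a known inducer of the family. Over all genes tested, 15.5% were called higher in monocytes and 12.4% lower, with a median of 0.46. Of 12 receptor and signalling genes, 4 were lower in monocytes (Jak1 -1.76, Irf9 -1.70, Irf1 -1.38 and Ifnar1 -1.08) and 1 was higher (Tyk2, 1.75), with adjusted p of 0.000279 to 0.0484 by edgeR and a median of -0.86. Irf7, the factor that amplifies interferon production, differed by -0.87 ± 0.37 (SE, 5 libraries each, edgeR adjusted p = 0.105). Of 30 interferon-stimulated effectors, 16 were lower in monocytes and 3 were higher, with a median of -1.51. The lower ones with the smallest p were Isg15, a ubiquitin-like modifier (-3.84 ± 0.27), the exonuclease gene Isg20 (-4.04 ± 0.30), Oasl2 (-2.78 ± 0.24) and Rsad2, encoding the antiviral enzyme viperin (-3.93 ± 0.37). The others were Rtp4, Ifit3, Samd9l, Oas3, Oas2, Cmpk2, Oasl1, Ifit1, Zc3hav1, Trim30a, Ddx58 and Ifit2. The 3 that were higher were the virus tether gene Bst2 (2.88 ± 0.44), Ifi44 (3.91 ± 0.77) and Mx1, encoding an antiviral GTPase (4.20 ± 0.91). Summed effector TPM was 2337 to 4411 in monocytes and 7423 to 13069 in neutrophils. Slfn4 at -4.24 lay within the range of the lower effectors, whose difference was widest for Ifit3 at -4.78 and narrowest for Ddx58 at -1.004.

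Genes of tRNA biology and translation restriction, the processes in which Schlafen proteins act, did not move one way. Of 11 tested, 2 were higher in monocytes, Rnh1, the inhibitor of angiogenin and related ribonucleases (1.80 ± 0.27), and the tRNA methyltransferase gene Nsun2 (5.38 ± 1.30). A further 2 were lower, among them Zc3hav1, the CpG-sensing antiviral protein also counted among the effectors (-1.41 ± 0.24). The median was 0.54, and adjusted p for the 3 named here was 0.00111 to 0.0130 by edgeR. These counts are near the shares of all genes called, 15.5% higher and 12.4% lower, which also stand beside the next list. The genes on either side of the cluster gave 11 tested of 15, of which 2 were lower in monocytes, the adaptin gene Ap2b1 (-0.99 ± 0.26, edgeR adjusted p = 0.0189) and the ubiquitin ligase gene Rffl (-1.25 ± 0.41, adjusted p = 0.0476), and none was higher, with a median of 0.91.

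**Figure D4:**
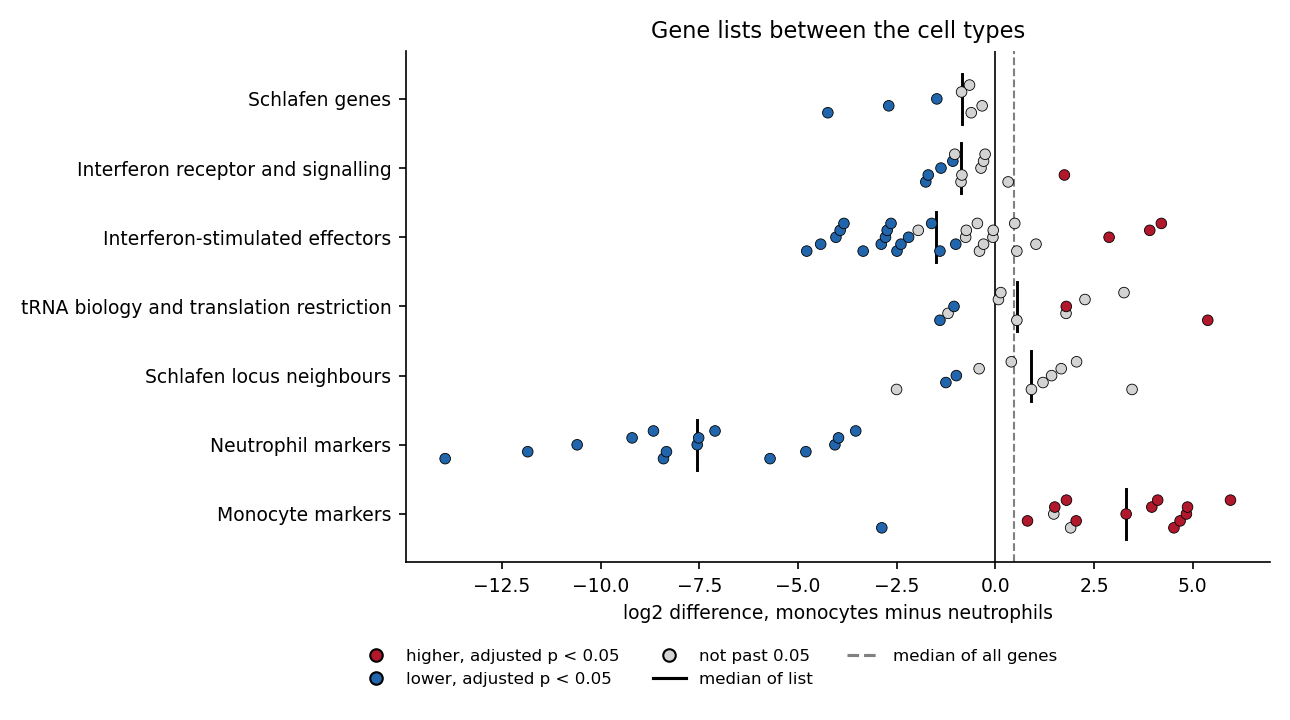
Log2 difference, monocytes minus neutrophils, of each gene of 7 lists by edgeR (red, higher; blue, lower; grey, not past the threshold), with the median of the list as a black bar and the median of all genes as a dashed line. The median of the Schlafen genes is -0.86, that of the interferon-stimulated effectors -1.51, and that of the neighbours of the cluster 0.91.

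The genes whose profile over the 10 libraries was most like each member, by the root mean square difference of centred log2(CPM + 1) among 6651 candidates, differed between members. For Slfn2 they were Rara (0.146), Irf7 (0.231) and Tagln2 (0.251), and for Slfn8 they were Irf7 (0.231), Rara (0.249) and Rgs19 (0.265), so these members of different structure had 2 genes in common. For Slfn1 they included Mboat7 (0.234) and Glipr2 (0.250), and for Slfn4 they were Nfe2 (0.425), Gm16556 (0.466) and Gm13822 (0.473), less close than for the other members. For Slfn5 they were Trex1 (0.328), Tprgl (0.343) and Klhl24 (0.354), where Klhl24 shares 1.47% of the 31-base words of Slfn5. For Slfn9 they were Rgl2 (0.295), Zfp36 (0.314) and Peli1 (0.342), and for Slfn3, on few counts, Utp14a (0.244), Tab2 (0.288) and Ctdsp2 (0.317).

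Between the tumours, no member was called in either cell type. The study was designed to compare lung monocytes and neutrophils of mice bearing the low and the highly metastatic tumour. In monocytes, 0 of 7 members and 0% of 13384 genes were called by edgeR, with 379 genes (2.83%) and 0 members at an unadjusted p under 0.05. DESeq2 called 22 genes and limma-trend on log2(TPM + 1) called 0, none of them a member, and edgeR called 128 genes without monocyte library TN1 tag_191. In neutrophils, 0 of 7 members and 0% of genes were called, with 625 genes (4.67%) and 0 members at an unadjusted p under 0.05. There DESeq2 called 87 genes, limma-trend 1, and edgeR 506 without neutrophil library TN1 tag_191, again without a member.

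In monocytes the largest member difference was that of Slfn4, 1.16 ± 0.74 on the log2 scale, TN2 minus TN1 (SE, 3 against 2 libraries, edgeR adjusted p = 1). Its levels were 78.3, 166 and 487 TPM in TN2 and 112 and 62.2 TPM in TN1, so that 1 TN1 library lay among the TN2 libraries and the other below them. Without monocyte library TN2 tag_1341 the difference was -0.058, and without both tag_1341 libraries it was 0.10, so most of its size came with that library. Neutrophil markers were also mostly positive: 14 of 15 were, 7 of them at an unadjusted p under 0.05 and none called, with a median of 2.24. Their sum was 1655, 9722 and 5019 TPM in TN2 monocytes (tag_367, tag_706 and tag_1341) and 1362 to 1444 TPM in TN1 monocytes. On TPM the sum was thus highest in tag_706, where Slfn4 was at 166 TPM, and on CPM it was highest in tag_1341 (3379, against 2962 in tag_706). Of the 15 markers, 0 to 1 were at 0 in TN2 and 1 to 3 in TN1. Lung markers summed to 65.9, 2350 and 24.0 CPM in TN2 monocytes (tag_367, tag_706 and tag_1341) and to 57.1 and 263 CPM in TN1 monocytes (tag_191 and tag_482), so tag_1341, the highest in Slfn4, was the lowest in these. The part of the neutrophil markers in the Slfn4 difference was not tested.

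Slfn5 and Slfn9 were the members whose monocyte groups did not overlap by CPM, 2 of 7 higher in TN2, against 12.4% of all genes higher, 7.73% lower and 20.1% in either direction. Slfn5 was at 47.7 to 52.8 TPM in TN2 monocytes and at 23.6 to 26.4 TPM in TN1 monocytes, and Slfn9 at 7.39 to 8.66 TPM in TN2 and at 3.87 to 5.20 TPM in TN1. Within each group these values were close together. By edgeR the differences were 0.55 ± 0.51 for Slfn5 and 0.67 ± 0.66 for Slfn9 (SE, 3 against 2 libraries, adjusted p = 1 for both). For Slfn5 in monocytes the authors' deposited table gives a log2 fold, TN2 over TN1, of 0.96 with p = 0.00487 and adjusted p = 1. In the same table of the authors' that of Slfn9 was 0.73 with p = 0.0228 and adjusted p = 1, and these were the members with p under 0.05 there. Its group means matched mean log2(TPM + 1) of the libraries to within 0.0395, and no TMM scaling enters them. The other edgeR differences in monocytes were 0.68 ± 0.49 for Slfn1, 0.16 ± 1.29 for Slfn3, 0.035 ± 0.44 for Slfn8 and -0.028 ± 0.44 for Slfn2. The median of all genes was 0.22 higher in TN2, and 59.8% of genes were positive.

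In neutrophils all 7 members were on the positive side, as were 59.7% of all genes. The log2 differences, TN2 minus TN1, were 1.08 ± 0.52 for Slfn5, 0.80 ± 0.45 for Slfn8, 0.76 ± 0.45 for Slfn2, 0.73 ± 0.49 for Slfn1, 0.69 ± 0.73 for Slfn4, 0.45 ± 0.66 for Slfn9 and 0.43 ± 1.30 for Slfn3. Their adjusted p was 0.943 to 1 by edgeR, and their median of 0.73 stood beside 0.22 for all genes. Slfn8 was the member without overlap by CPM, 1 of 7 higher, against 11.8% of all genes higher, 5.91% lower and 17.7% in either direction. On TPM its groups overlapped, with 37.1 to 62.7 in TN2 and 21.8 to 43.4 in TN1, while those of Slfn1 did not, with 229.7 to 424 in TN2 and 188 to 226 in TN1. Monocyte markers were also mostly positive: 12 of 15 were, 3 at an unadjusted p under 0.05 and none called, with a median of 1.29. Their summed levels overlapped, at 29401 to 57829 CPM in TN2 and 39673 to 51124 CPM in TN1. In neutrophils that sum was mostly Cd14, the marker that was lower in monocytes (16990 to 28820 TPM, against 21404 to 33142 TPM summed). The part of the monocyte markers in the member differences was not tested. Slfn5 came close to separating, with 53.6, 65.6 and 121 TPM in TN2 and 24.3 and 53.9 TPM in TN1. In the authors' deposited table the neutrophil fold of Slfn5 was 1.04 on the log2 scale (p = 0.120) and that of Slfn10-ps was 1.37 (p = 0.0219), both with adjusted p = 1. By edgeR Slfn10-ps differed by 3.19 ± 1.63 in neutrophils and 1.52 ± 1.47 in monocytes (SE, 3 against 2 libraries, adjusted p = 0.943 and 1).

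TN2 tag_1341 was the library highest in TPM for 5 of 7 members in monocytes and for 6 of 7 in neutrophils. Monocyte library TN1 tag_482 was the lowest for 5 of 7. Some marker lists also peaked in TN2 tag_1341 among the monocyte libraries. Monocyte markers summed to 63773 TPM there, against 25593 to 42768 TPM in the others. Macrophage and dendritic cell markers summed to 11285 TPM there, against 869 to 5763 TPM in the others. In neutrophils neither sum was highest in tag_1341. The part of these markers in the member levels was not tested. Without both tag_1341 libraries, a setting chosen after the data were seen, the neutrophil differences of Slfn4 and Slfn9 were 0.062 and -0.17, and the monocyte differences of Slfn4 and Slfn2 were 0.10 and -0.24. Interferon-stimulated effectors were also highest in tag_1341, at 4411 TPM in monocytes and 13069 TPM in neutrophils, against 3375 and 3952 TPM in the other TN2 monocyte libraries and 8434 and 10566 TPM in the other TN2 neutrophil libraries. In TN1 they summed to 3029 and 2337 TPM in monocytes and 7423 and 7488 TPM in neutrophils, tag_191 and tag_482. None of the 30 was called between the tumours in either cell type, although all 30 had a positive difference in neutrophils, with a median of 0.77, and 22 of 30 in monocytes, with a median of 0.17. The 12 receptor and signalling genes had medians of 0.21 in monocytes and 0.61 in neutrophils, the 11 tRNA genes 0.046 and 0.74, and the 11 neighbours 0.44 and 0.54, in the same order of cell types and none called.

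**Figure D5:**
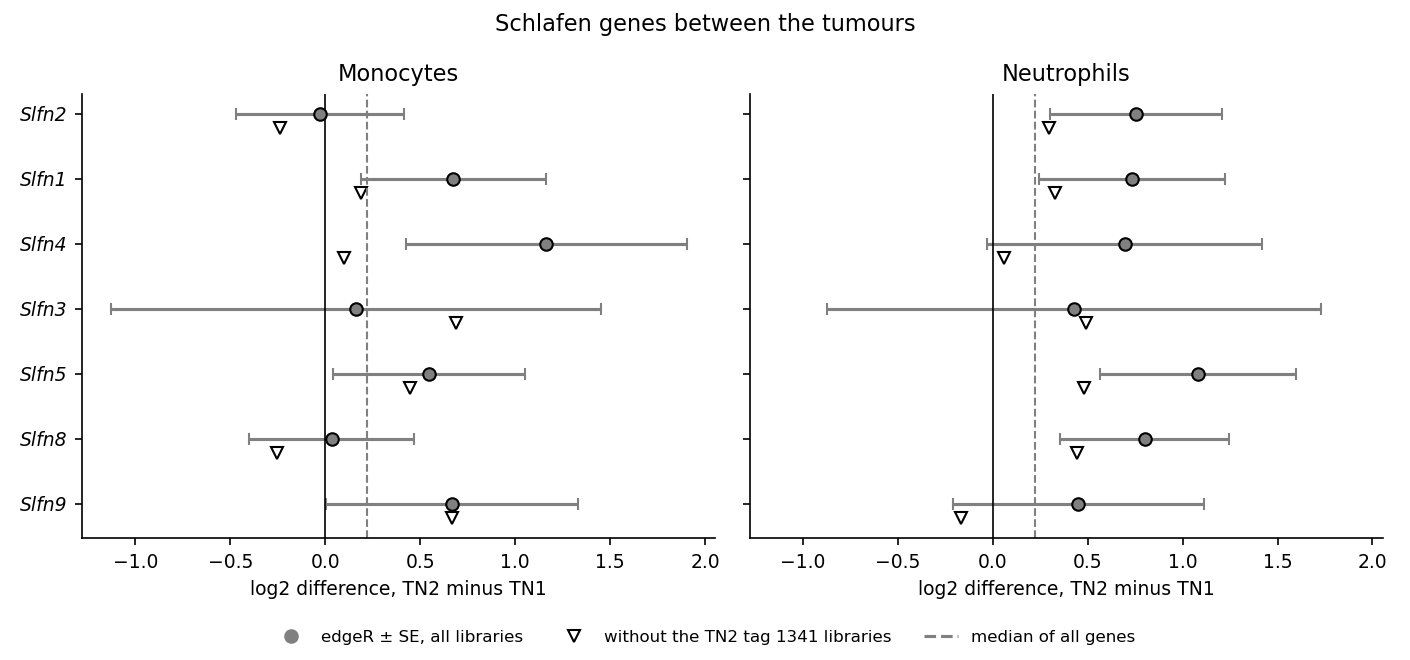
Log2 difference of each Schlafen gene, TN2 minus TN1, in monocytes (left) and neutrophils (right) by edgeR (circles with SE) and without both TN2 tag_1341 libraries (open triangles), with the median of all genes as a dashed line. All 7 circles are above 0 in neutrophils, and without tag_1341 Slfn4 lies at 0.10 in monocytes and 0.062 in neutrophils.

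Whether the tumour difference itself differed between the cell types was tested as an interaction. No member and 0% of genes were called by edgeR, with 472 genes (3.53%) and 0 members at an unadjusted p under 0.05, and DESeq2 called 30 genes, none of them a member. Of the 7 members 2 had a positive difference, against 49.0% of all genes. The differences, monocytes minus neutrophils, were widest for Slfn2 at -0.78 ± 0.63 and Slfn8 at -0.77 ± 0.62 (SE, edgeR adjusted p = 0.9999 for both). For Slfn4 it was 0.47 ± 1.01, and for the other 4 members it lay between -0.53 and 0.21.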

How the data were processed

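RNA of sorted lung monocytes and neutrophils was amplified with Smart-seq2 and sequenced on a HiSeq 2500, per the labels and the series' design text. The authors made the deposited estimated counts and TPM per transcript with kallisto 0.42.3 against GRCm38, per the design text. The authors' comparison tables hold log2 group means, log2 folds, signed folds (a score) and p-values from AltAnalyze, per the file headers and the design text, and their test is not given in the sources used here.

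Transcripts were matched to genes through GENCODE vM21 (81839 of 85276) and summed. Unmatched transcripts held 1.94% to 3.59% of counts. Counts were rounded, and genes were kept by edgeR's filter on low counts (minimum total of 10), which left 13384. All 10 libraries entered 1 quasi-likelihood fit in edgeR 4.0.16 (R 4.3.3) with TMM factors, with Benjamini-Hochberg adjustment over all genes and a threshold of 0.05, and the fit was checked on simulated data. limma 3.58.1 (limma-trend and limma-voom) and DESeq2 1.42.0 served as alternatives, beside other scalings, filters, pseudocounts of 1 and 0.1, a tag block and left-out libraries. Transcript shares were compared by exact two-sided permutation in scipy 1.17.1. Smart-seq2 reads carry no molecular identifiers and no strand. Replicates of 1 group differed by more than sampling noise.

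Named genes were all members, the other Schlafen genes, the called genes of each list with up to 4 examples of smallest p, and the 3 genes most like each member in profile among those with a mean CPM of 10 or more. Members and lists were chosen with earlier results of these data known. Sequences are RefSeq promoter windows on GRCm38.p6, and protein sequences were not analysed here. A called list gene and a gene of like profile that this rule names are not reported here.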

Additional observations from a re-analysis of the deposited data

How the results depend on the processing

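Slfn4 and Slfn1 were called lower in monocytes under all 21 alternatives, and no member was called between the tumours or in the interaction under any. Genes called between the cell types ranged from 2682 to 3861 with 1 library left out, and 5730 were called by limma-trend on log2(TPM + 1). Members called there ranged from 2 to 4. Between the tumours, DESeq2 called 22 genes in monocytes, 87 in neutrophils and 30 in the interaction. In neutrophils limma-trend called 1 on log2(TPM + 1) and 3 on log2(TPM + 0.1), edgeR called 2 with no filter and 1 without scaling factors, and in the interaction edgeR called 1 with no filter. With 1 library left out these counts ran from 0 to 128 in monocytes, 0 to 506 in neutrophils and 0 to 372 in the interaction, each highest without a TN1 tag_191 library, and members called stayed at 0.

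The members not called changed sign as follows, and the cause was not tested. Monocytes minus neutrophils gave Slfn3 0.0077, Slfn8 0.00067 and Slfn9 0.67 on log2(TPM + 1), Slfn8 0.0018 and Slfn9 0.82 on log2(TPM + 0.1), Slfn9 0.0075 with length-scaled counts, and Slfn2 0.0033, Slfn3 0.21, Slfn8 0.18 and Slfn9 0.53 without scaling factors. TN2 minus TN1 in monocytes gave Slfn8 -0.039 with RLE factors and by DESeq2, Slfn3 -0.46 and Slfn8 -0.052 by limma-voom, Slfn2 0.28 on both TPM scales, Slfn3 -0.013 on log2(TPM + 0.1), and Slfn2 0.14 without scaling factors. Without both tag_482 libraries it gave Slfn2 0.039, Slfn3 -0.25 and Slfn8 -0.13, and without both tag_1341 libraries Slfn8 -0.25. In neutrophils Slfn9 was -0.17 without both tag_1341 libraries. The interaction gave Slfn1 0.35 and Slfn10-ps 0.45 on log2(TPM + 1), Slfn1 0.36 and Slfn10-ps 0.12 on log2(TPM + 0.1), Slfn1 0.25 without scaling factors and Slfn3 0.20 without both tag_1341 libraries.

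With 1 library left out, the monocyte differences ranged from -0.31 to 0.20 for Slfn2, -0.80 to 0.62 for Slfn3, -0.058 to 1.51 for Slfn4 and -0.32 to 0.31 for Slfn8. Slfn9 in neutrophils ranged from -0.17 to 0.81, and Slfn10-ps between the cell types from -0.55 to 3.25. In the interaction the ranges were -0.49 to 0.37 for Slfn1, -1.12 to 0.30 for Slfn3, -0.61 to 1.10 for Slfn4, -1.29 to 0.067 for Slfn5, -0.14 to 0.83 for Slfn9 and -4.51 to 3.26 for Slfn10-ps. Where a left-out library leaves 1 TN1 sample in a group, that sample is assumed to vary like the others.

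In their deviations from the group means, libraries of the same tag correlated at 0.089 for tag_191 and 0.089 for tag_482. The correlation was -0.057 for tag_367, 0.38 for tag_706 and 0.34 for tag_1341. Each TN1 group holds only tag_191 and tag_482, whose deviations mirror each other, so their values are equal by construction. Deviations within groups this small depend on each other and cannot decide whether the tags are pairs. The tags were not taken as pairs. With the tag as a replicate block, a fixed term in edgeR, 3335 genes and 3 members were called between the cell types. Between the tumours the block was a random term in limma-voom, and 0 were called. The block changed no member's call. In that limma-voom fit Slfn3 was -0.46 and Slfn8 -0.052 between the tumours in monocytes, as by limma-voom without the block.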
